A study of Homo sapiens with 18 samples.

Results

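The cholesterol and fatty acid synthesis genes were followed in MDA-MB-231 cells, an established line of triple-negative breast cancer, after depletion of HP1γ or PRMT5. They were chosen by symbol: 36 symbols were looked up in the per-library count files, covering the SREBP factors and their partners, each step from acetyl-CoA to cholesterol, cholesterol uptake, storage and efflux, and fatty acid synthesis. All 36 were found among the 60642 symbols of the files, and 34 of them passed the filter on low counts, out of 15298 genes tested. The 2 that did not pass were ABCG1, a sterol efflux transporter, with a single read in a single library, and ACACA, the first enzyme of fatty acid synthesis, with 0 to 4 reads per library. The annotation behind these symbols could not be checked, and RXRB and AGPAT1, other widely expressed genes of lipid regulation, were likewise at 0 reads and at 0 to 2 reads per library, so these values are given as listed counts and not as evidence of low expression. Neither ABCG1 nor ACACA enters the counts given here.

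RNA was sequenced from 6 conditions with 3 replicates each, described in the study as biological replicates. Cells received a non-specific siRNA (siNS), an siRNA pool against HP1γ (siHP1γ, gene CBX3) or an siRNA pool against PRMT5 (siPRMT5), each at 25 nM for 48 h, and then 100 nM dexamethasone (Dex), a synthetic glucocorticoid, or the vehicle ethanol (Eth) for 8 h. The groups are therefore siNS Eth, siNS Dex, siHP1γ Eth, siHP1γ Dex, siPRMT5 Eth and siPRMT5 Dex. According to the methods, cells were kept before experiments in phenol red-free medium with charcoal-stripped serum, so every condition shared a serum from which lipophilic compounds are removed. Each depletion used 1 pool of siRNAs against 1 gene in 1 cell line, and no rescue was among the samples analysed here.

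Cells make cholesterol from acetyl-CoA through mevalonate, farnesyl diphosphate, squalene and lanosterol, and they make long-chain fatty acids from the same precursor. Both routes are driven by the SREBP transcription factors, which SCAP escorts from the endoplasmic reticulum to the Golgi for activation when membrane sterol is low, while INSIG proteins hold them back when sterol is abundant. HP1γ is a chromatin protein that binds methylated histone H3, PRMT5 is an arginine methyltransferase, and the study examined both as coregulators of the glucocorticoid receptor. In bulk RNA, a change in the number of cells that express a gene and a change in its RNA per cell cannot be told apart.

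The libraries held 8682992 to 12472381 counts. Levels are given as CPM, the counts of a gene scaled to a common library total after TMM correction for library composition, and a CPM value compares libraries for 1 gene, not genes with each other. CBX3 lay between 220.4 and 274 CPM in siNS libraries and between 9.23 and 15.8 CPM in siHP1γ libraries, and PRMT5 lay between 226 and 262 CPM in siNS libraries and between 6.10 and 11.5 CPM in siPRMT5 libraries. PRMT5 mRNA itself fell by 0.35 on the log2 scale in siHP1γ Dex against siNS Dex cells (SE 0.07, edgeR adjusted p = 0.00123). Without Dex it fell by 0.25 (SE 0.07, edgeR adjusted p = 0.0111). NR3C1, the gene of the glucocorticoid receptor, was 0.31 higher in siPRMT5 Dex than in siNS Dex cells (SE 0.09, edgeR adjusted p = 0.0062). Without Dex the value for NR3C1 was 0.175 (edgeR adjusted p = 0.121). Of the markers listed for the line, VIM, CD44, AXL and NR3C1 were expressed in every library, whereas SPARC reached only 10.7 CPM. AXL stood at 912 to 1003 CPM in siNS Eth, at 707 to 762 CPM in siHP1γ Eth and at 210.2 to 226 CPM in siPRMT5 Eth libraries. The part of AXL in the results below was not tested. ESR1, PGR and CDH1 stayed at or under 0.218 CPM in every library, but ERBB2 (24.5 to 36.0 CPM), EPCAM (8.57 to 14 CPM) and GATA3 (2.68 to 7.48 CPM) were detected. The blood marker PTPRC, the hepatocyte marker ALB and the adipocyte markers ADIPOQ and PLIN1 did not exceed 0.954 CPM.

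Promoter windows of 300 bases, from 250 before to 50 after the annotated start, were taken from RefSeq (GRCh38.p14) and matched 31 of the 36 genes. ACAT2, FDFT1, SQLE, FASN and ABCG1 had no entry. The motifs were searched on both strands, and the share of all 35116 windows that hold each is given beside the share of the 31. The SREBP element TCACNCCAC was in 1.13% of all windows and in 1 of the 31, that of SREBF2. The NF-Y box CCAAT, which often lies near SREBP elements, was in 34.6% of all windows and in 61.3% of the 31. The Sp1 box GGGCGG was in 45.0% of all windows and in 90.3% of the 31, the E-box CACGTG in 7.26% and 16.1%, and the glucocorticoid receptor motif AGAACA in 14.8% and 3.23%. A match says only that these letters occur in the window. Some windows, such as those of ACACA, DHCR7 and HMGCS1, lay inside the gene as GENCODE annotates it. Sequence outside the windows was not searched, so the lack of a match does not show that a gene lacks the motif.

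The windows printed here belong to the SREBP gene that holds the SREBP element, to the members with the lowest (STARD4) and a further large drop (IDI1) after HP1γ depletion, and to the member with the largest rise after PRMT5 depletion (MYLIP). Each is printed 5′ to 3′ on the strand of its gene, with the SREBP element and the NF-Y boxes, on either strand, in capitals.
SREBF2, chr22:41832855-41833154, plus strand: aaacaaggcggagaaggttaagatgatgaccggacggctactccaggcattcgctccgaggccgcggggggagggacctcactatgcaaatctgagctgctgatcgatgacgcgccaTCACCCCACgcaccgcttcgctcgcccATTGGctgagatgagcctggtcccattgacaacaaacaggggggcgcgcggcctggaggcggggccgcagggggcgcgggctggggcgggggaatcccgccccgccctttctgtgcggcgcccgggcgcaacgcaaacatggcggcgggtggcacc
STARD4, chr5:111512486-111512785, minus strand: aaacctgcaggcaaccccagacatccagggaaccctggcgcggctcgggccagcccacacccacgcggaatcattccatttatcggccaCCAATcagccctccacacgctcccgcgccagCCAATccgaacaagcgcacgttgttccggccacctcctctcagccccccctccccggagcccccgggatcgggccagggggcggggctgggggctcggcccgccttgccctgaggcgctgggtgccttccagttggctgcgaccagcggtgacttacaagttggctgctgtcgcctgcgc
IDI1, chr10:1049070-1049369, minus strand: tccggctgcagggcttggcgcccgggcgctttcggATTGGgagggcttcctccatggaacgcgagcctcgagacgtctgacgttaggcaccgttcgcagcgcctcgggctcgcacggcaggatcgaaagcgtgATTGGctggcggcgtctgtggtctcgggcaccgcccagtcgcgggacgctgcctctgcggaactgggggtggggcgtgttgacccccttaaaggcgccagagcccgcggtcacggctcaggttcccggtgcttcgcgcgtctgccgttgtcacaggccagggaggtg
MYLIP, chr6:16128836-16129135, plus strand: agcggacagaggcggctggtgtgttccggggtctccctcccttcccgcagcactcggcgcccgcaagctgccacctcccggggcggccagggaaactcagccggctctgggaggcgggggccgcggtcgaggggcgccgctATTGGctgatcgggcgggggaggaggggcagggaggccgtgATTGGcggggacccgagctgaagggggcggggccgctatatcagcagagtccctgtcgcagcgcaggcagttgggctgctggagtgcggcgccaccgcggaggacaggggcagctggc
In SREBF2 the SREBP element began 133 bases before the annotated start and did not overlap the NF-Y box, which began 106 bases before it. STARD4, IDI1 and MYLIP each held 2 NF-Y boxes and no SREBP element of this spelling. IDI1 was not next to STARD4 in the size of its drop with Dex. HMGCS1, FADS2, INSIG1, SREBF1 and MVD fell more than IDI1, and their windows held 0, 1, 1, 0 and 3 NF-Y boxes. FASN and ACAT2 also fell more and had no window. Among the genes with a window, 13 of the 20 that fell after HP1γ depletion with Dex and 5 of the 10 that were not called there held an NF-Y box.

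Summed over the 36 genes, the share of all counts was 0.713% to 0.737% in the 3 siNS Eth libraries and 0.701% to 0.756% in the 3 siNS Dex libraries. It was 0.563% to 0.582% with Eth and 0.544% to 0.555% with Dex in siHP1γ cells, below every siNS library. In siPRMT5 cells it was 0.682% to 0.741% with Eth, overlapping the siNS Eth values, and 0.636% to 0.659% with Dex, below the siNS Dex values. The genes with the most counts weigh most in this sum, led by SCD, HMGCS1 and FASN (means of 1742, 734.4 and 519.7 CPM in siNS Eth). In the map of single libraries, the siHP1γ columns were low across most rows. The siPRMT5 columns were low in some rows and high in others.

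**Figure D1:**
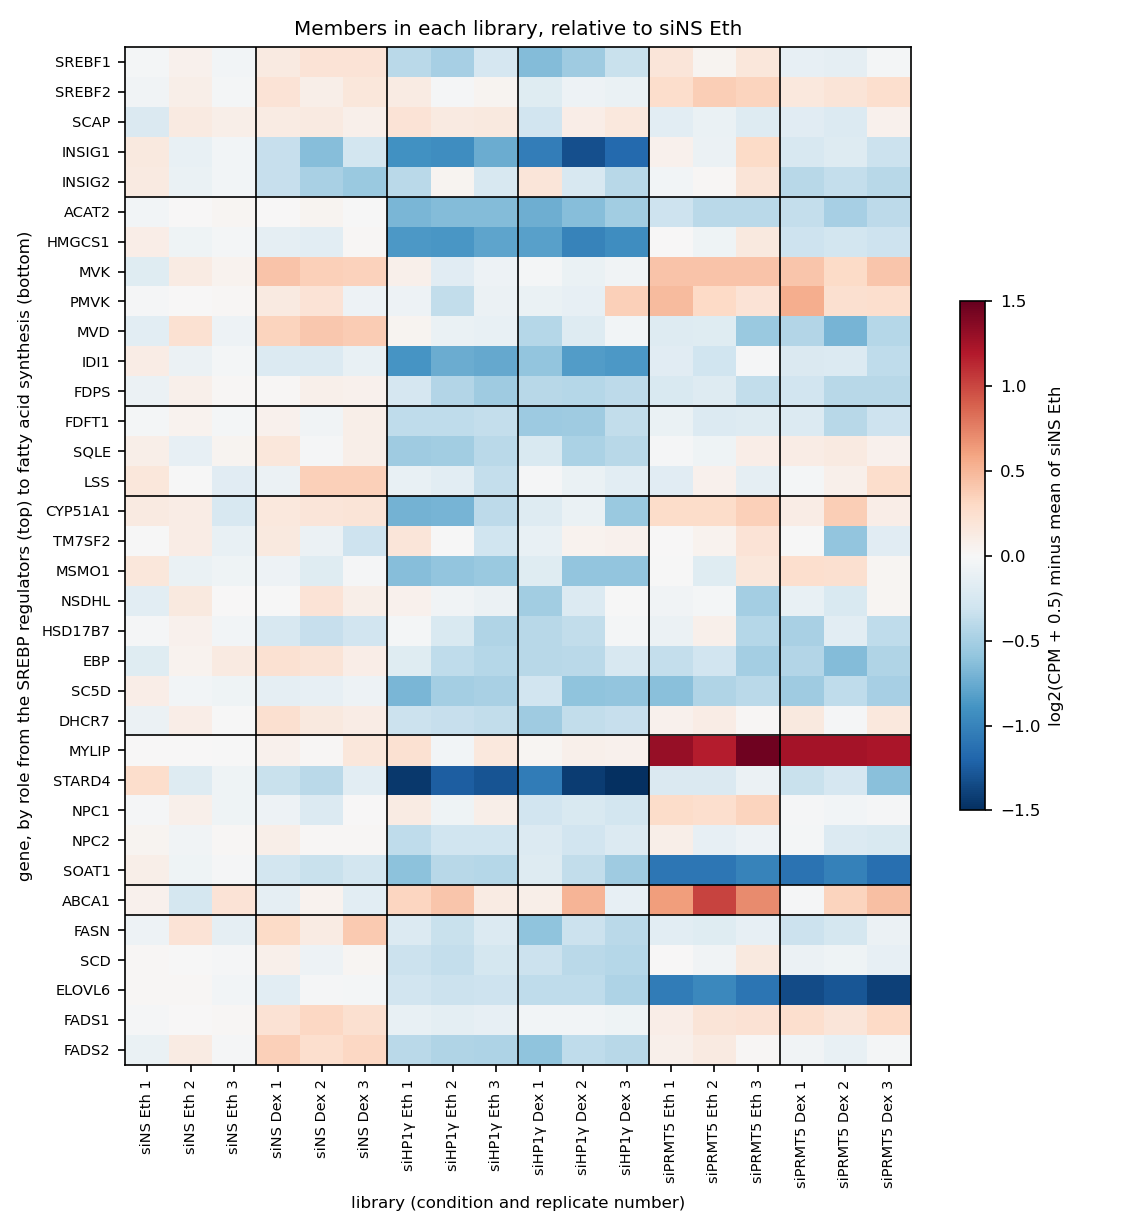
Level of each of the 34 tested genes (rows, ordered from the SREBP regulators to fatty acid synthesis) in each of the 18 libraries (columns), as log2(CPM + 0.5) minus the mean of the 3 siNS Eth libraries. Blue is lower and red is higher than siNS Eth, colours end at 1.5 in either direction, and deep colours are seen for STARD4 and INSIG1 in siHP1γ libraries and for MYLIP, ELOVL6 and SOAT1 in siPRMT5 libraries.

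To ask which of these genes depend on HP1γ, siHP1γ was compared with siNS cells within each treatment, and a gene was called at an adjusted p below 0.05 (edgeR quasi-likelihood test on all 18 libraries, Benjamini-Hochberg adjustment over 15298 genes). With Dex, 24 of the 34 genes fell and 0 rose, where 12.3% of all genes tested fell and 11.7% rose. Without Dex, 20 of the 34 fell and 0 rose, where 15.2% of all genes fell and 16.5% rose. The median log2 fold change of the 34 was -0.39 with Dex and -0.32 without, against 0.00485 and 0.0125 over all genes. At an unadjusted p below 0.05, 26 were lower and 1 was higher with Dex, and 21 were lower and 0 higher without. DESeq2 called 24 and 21 lower and 0 higher in either treatment. For the unadjusted rule and for DESeq2 the shares over all genes are not given here.

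The 2 comparisons share no library, and 19 genes fell in both, or 79.2% of those that fell with Dex and 95.0% of those that fell without. Over all genes tested, 1220 fell in both, which was 64.8% of the 1882 that fell with Dex and 52.4% of the 2329 that fell without. FADS1, MVD, MVK, NSDHL and SREBF2 passed the threshold with Dex but not without, and SOAT1 without Dex but not with. None of these 6 had a Dex response that differed between siHP1γ and siNS cells at an adjusted p below 0.05, as given further on. With library sizes alone in place of TMM, 20 fell and 1, INSIG2, rose with Dex, and 19 fell without, while the share of higher genes among all genes called moved from 48.7% to 69.2% with Dex and from 52.1% to 63.8% without.

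**Figure D2:**
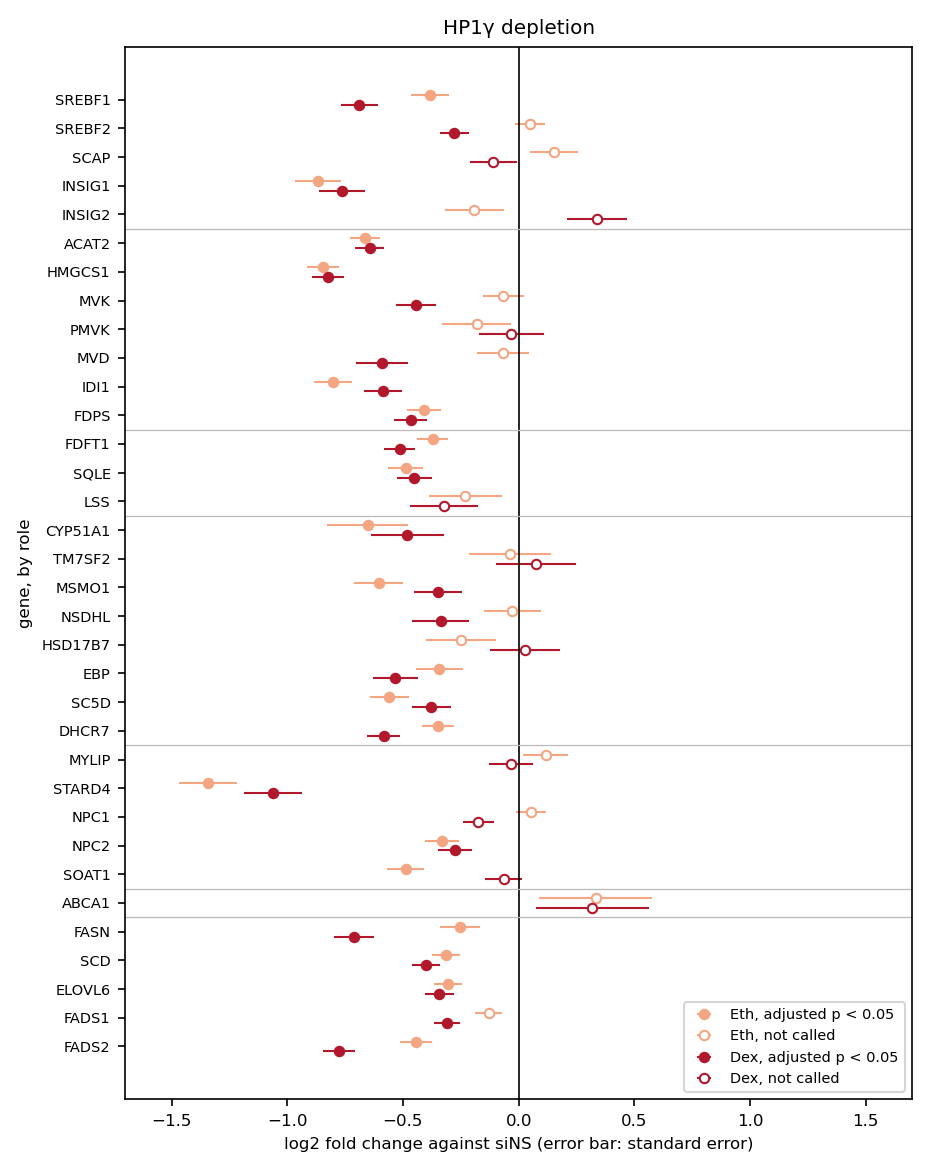
Log2 fold change of siHP1γ against siNS for the 34 tested genes, with Eth (light) and with Dex (dark), error bars giving the standard error from the edgeR fit and filled points an adjusted p below 0.05. Filled points lie to the left of 0 in every role group but efflux, with STARD4 farthest at -1.34 and -1.06.

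Of the regulators, 3 of 5 fell with Dex and 2 of 5 without. INSIG1, which retains SCAP and SREBP in the endoplasmic reticulum and is itself an SREBP target, lies at chr7:155297776-155310235 (GRCh38). It was at 313, 261 and 275 CPM in siNS Eth and at 149.6, 147 and 168 CPM in siHP1γ Eth libraries. With Dex it was at 222, 181 and 233 CPM in siNS and at 137, 113 and 125 CPM in siHP1γ libraries. Every siHP1γ library was below every siNS library of its treatment, with log2 fold changes of -0.87 (SE 0.10, adjusted p = 2.68e-07) without and -0.76 (SE 0.10, adjusted p = 2.46e-06) with Dex. SREBF1, the SREBP gene most tied to fatty acid synthesis, fell by 0.38 on the log2 scale without (SE 0.08, adjusted p = 0.0007) and by 0.69 with Dex (SE 0.08, adjusted p = 5.3e-07). SREBF2, the SREBP gene most tied to sterol synthesis, fell by 0.28 with Dex (SE 0.06, adjusted p = 0.00207) and had a log2 fold change of 0.05 without (adjusted p = 0.599). SCAP and INSIG2 did not pass in either treatment, INSIG2 at 0.34 with Dex (adjusted p = 0.0584).

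Of the 7 genes from acetyl-CoA to farnesyl diphosphate, 6 fell with Dex and 4 without. HMGCS1, which joins acetoacetyl-CoA and acetyl-CoA on the way to mevalonate (chr5:43287470-43313512), was at 783, 702 and 718 CPM in siNS Eth and at 403, 399.9 and 423 CPM in siHP1γ Eth libraries. With Dex it was at 667, 658 and 745 CPM in siNS and at 418, 366 and 385 CPM in siHP1γ libraries. Its siHP1γ libraries lay far below the siNS libraries in both treatments, with log2 fold changes of -0.85 (SE 0.07, adjusted p = 1.17e-09) without and -0.82 (SE 0.07, adjusted p = 2.14e-09) with Dex. ACAT2, the thiolase that makes acetoacetyl-CoA (chr6:159762045-159779112), was at 373, 385 and 393 CPM in siNS Eth and at 239, 244 and 244 CPM in siHP1γ Eth libraries. With Dex, ACAT2 was at 387, 394 and 381 CPM in siNS and at 230.2, 246 and 268 CPM in siHP1γ libraries. The groups did not overlap, and the log2 fold changes were -0.66 without and -0.64 with Dex (SE 0.06 in both, adjusted p = 1.51e-08 and 2.99e-08).

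IDI1, the isomerase that makes dimethylallyl diphosphate, was at 338, 295 and 307 CPM in siNS Eth and at 169, 187 and 184 CPM in siHP1γ Eth libraries. With Dex it was at 270.5, 271 and 290.2 CPM in siNS and at 207, 175 and 171 CPM in siHP1γ libraries. Again no siHP1γ library reached the siNS range, and IDI1 fell by 0.80 without (SE 0.08, adjusted p = 5.14e-08) and by 0.59 with Dex (SE 0.08, adjusted p = 6.85e-06). FDPS, the farnesyl diphosphate synthase (chr1:155308748-155320666), was at 220.0, 246 and 237 CPM in siNS Eth and at 197, 173 and 161 CPM in siHP1γ Eth libraries. With Dex, FDPS was at 237, 246 and 246 CPM in siNS and at 175, 174 and 178 CPM in siHP1γ libraries. The log2 fold changes of FDPS were -0.41 (SE 0.07, adjusted p = 0.000103) and -0.47 (SE 0.07, adjusted p = 2.65e-05), and the files hold 8 of its pseudogenes, with which reads could be shared. Other annotated genes overlap 37.7% of the exonic bases of HMGCS1, 22.2% of ACAT2, 18.6% of FDPS and 15% of IDI1, and further on 36.4% of EBP, and reads from there could be counted for either gene or for neither.

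The 2 genes of this stretch that passed the threshold with Dex but not without were the mevalonate kinase MVK and the decarboxylase MVD. MVD (chr16:88651935-88663161) was at 44.7, 58.5 and 47.1 CPM in siNS Eth and at 51.1, 46.6 and 45.9 CPM in siHP1γ Eth libraries, ranges that overlap. With Dex, MVD was at 62.8, 65.9 and 64.8 CPM in siNS and at 36.8, 43.4 and 48.5 CPM in siHP1γ libraries, which do not overlap. Its log2 fold change was -0.59 with Dex (SE 0.11, adjusted p = 0.000271) and -0.07 without (SE 0.11, adjusted p = 0.684). For MVK the values were -0.44 with Dex (SE 0.09, adjusted p = 0.000391) and -0.07 without (adjusted p = 0.615). PMVK, the kinase between them, was not called, at -0.03 with and -0.18 without Dex.

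From farnesyl diphosphate to lanosterol, 2 of 3 genes fell in each treatment. FDFT1, the squalene synthase, was at 400.5, 422 and 400.4 CPM in siNS Eth and at 314, 314 and 318 CPM in siHP1γ Eth libraries. With Dex, FDFT1 was at 425, 394 and 432 CPM in siNS and at 279, 281 and 316 CPM in siHP1γ libraries. The siHP1γ libraries lay below the siNS libraries without overlap, and FDFT1 fell by 0.37 without (SE 0.07, adjusted p = 0.000114) and by 0.51 with Dex (SE 0.07, adjusted p = 2.2e-06). SQLE, the squalene epoxidase, fell by 0.49 without and by 0.45 with Dex. LSS, the lanosterol synthase, was at -0.23 and -0.32 and did not pass (adjusted p = 0.288 and 0.117).

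From lanosterol to cholesterol, 6 of 8 genes fell with Dex and 5 of 8 without, by 0.34 to 0.65 on the log2 scale. SC5D, a sterol desaturase (chr11:121292681-121313410), was at 163, 147 and 145 CPM in siNS Eth and at 94.1, 106 and 108 CPM in siHP1γ Eth libraries. With Dex, SC5D was at 138, 139 and 144 CPM in siNS and at 124, 99.5 and 100.0 CPM in siHP1γ libraries. No overlap was seen in either treatment, although 1 siHP1γ Dex library came close, and the log2 fold changes were -0.56 (SE 0.08, adjusted p = 1.55e-05) and -0.38 (SE 0.08, adjusted p = 0.00168). EBP, the sterol isomerase (chrX:48521799-48528716), was at 30.5, 35.8 and 37.9 CPM in siNS Eth and at 30.5, 26.4 and 25.5 CPM in siHP1γ Eth libraries, where the highest siHP1γ library reached the lowest siNS library. With Dex, EBP was at 40.5, 39.5 and 37.0 CPM in siNS and at 25.8, 26.0 and 29.1 CPM in siHP1γ libraries, well apart. EBP fell by 0.34 without (SE 0.10, adjusted p = 0.0105) and by 0.53 with Dex (SE 0.10, adjusted p = 0.000226).

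DHCR7, the last reductase of the Kandutsch-Russell branch, fell by 0.35 without and by 0.58 with Dex, and MSMO1, a sterol methyl oxidase, by 0.60 and 0.35. The call of MSMO1 with Dex was lost in 4 of 25 alternative fits. CYP51A1, the lanosterol demethylase, fell by 0.65 without (SE 0.17, adjusted p = 0.00518) and by 0.48 with Dex (SE 0.16, adjusted p = 0.027). CYP51A1 was read at only 3.61 to 8.14 CPM and its call with Dex was lost in 8 of 25 alternative fits. Other annotated genes share 74.1% of its exonic bases and the files hold 3 of its pseudogenes, and their part in its level was not tested. NSDHL passed only with Dex, at -0.34 (adjusted p = 0.0459), a call lost in 11 of 25 alternative fits, 10 of them with 1 library left out. TM7SF2 and HSD17B7 lay between -0.25 and 0.08 and passed in neither treatment.

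The genes of uptake control, transport and storage were mixed, with 2 of 5 lower with Dex and 3 of 5 without. STARD4, a soluble carrier that moves cholesterol between membranes (chr5:111496033-111512590), was at 174, 127 and 139 CPM in siNS Eth and at 52.9, 61.1 and 58.8 CPM in siHP1γ Eth libraries. With Dex, STARD4 was at 115, 109.9 and 130.1 CPM in siNS and at 70.1, 54.0 and 45.6 CPM in siHP1γ libraries. All siHP1γ libraries were far below the siNS libraries, and the log2 fold changes of -1.34 (SE 0.13, adjusted p = 1.14e-08) and -1.06 (SE 0.13, adjusted p = 6.05e-07) ranked 88 and 166 from the lowest among 15298 genes. NPC2, which carries cholesterol out of lysosomes, fell by 0.33 without and by 0.28 with Dex, whereas its partner NPC1 was at 0.05 and -0.17 and was not called. SOAT1, which esterifies cholesterol for storage, fell by 0.49 without Dex (adjusted p = 3.74e-05) and was at -0.06 with Dex (adjusted p = 0.603). MYLIP, the ligase that marks lipoprotein receptors for degradation, and ABCA1, a cholesterol efflux pump read from 17 to 42 counts per library, were called in neither treatment.

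All 5 tested genes of fatty acid synthesis fell with Dex and 4 of 5 without. FADS2, a polyunsaturated fatty acid desaturase (chr11:61792980-61867354), was at 287, 334 and 304 CPM in siNS Eth and at 232, 226 and 223 CPM in siHP1γ Eth libraries. With Dex, FADS2 was at 394, 368 and 381 CPM in siNS and at 202, 236 and 229.8 CPM in siHP1γ libraries. The gap to siNS was wider with Dex, with log2 fold changes of -0.78 (SE 0.07, adjusted p = 4.59e-09) against -0.44 without (SE 0.07, adjusted p = 1.95e-05). FASN, the fatty acid synthase, fell by 0.71 with (SE 0.09, adjusted p = 9.7e-07) and by 0.25 without Dex (SE 0.09, adjusted p = 0.0282). SCD, the stearoyl-CoA desaturase, fell by 0.40 and 0.31, and FADS1 by 0.31 with Dex only (adjusted p = 0.000249 with and 0.089 without).

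**Figure D3:**
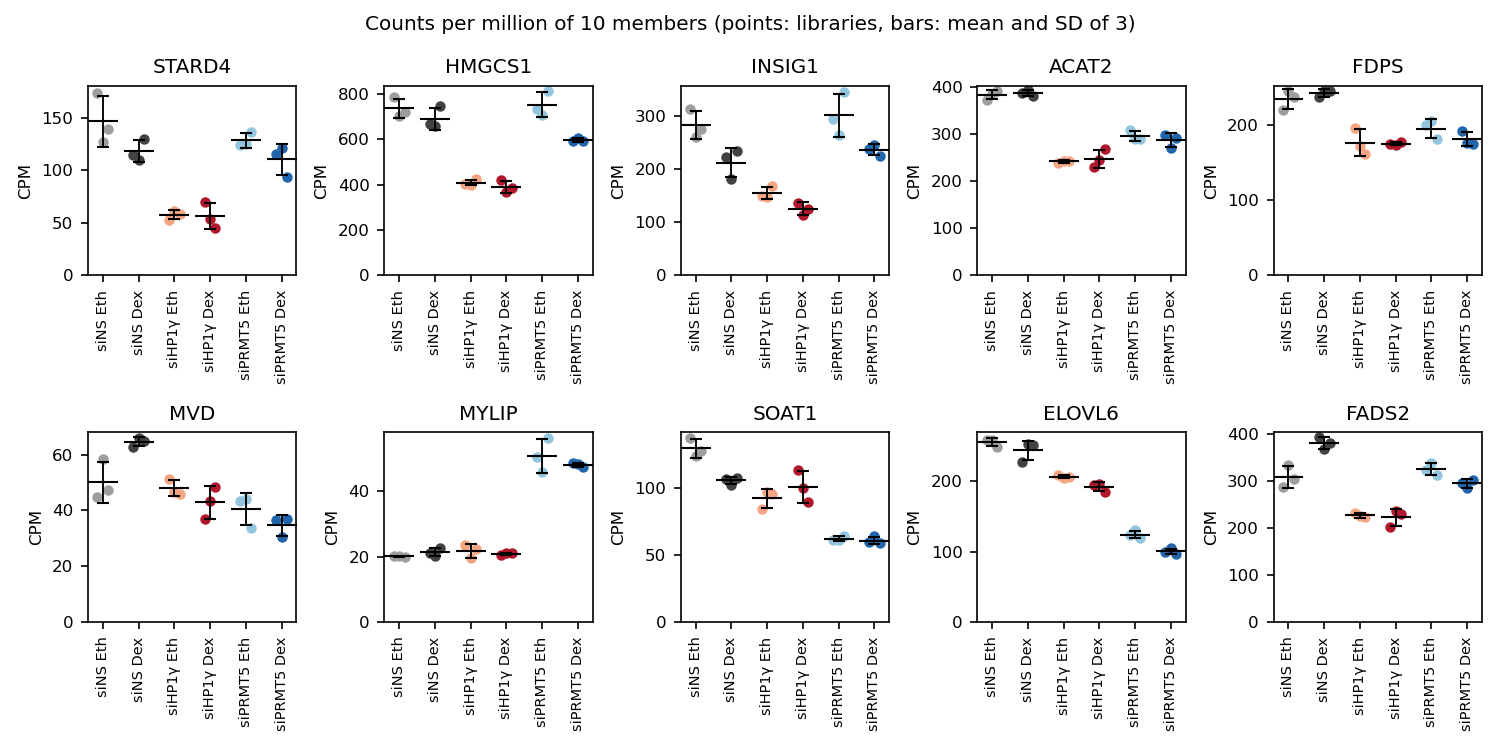
CPM of 10 of the genes in every library (points) by condition, with the mean and SD of 3 libraries as bars and the vertical axis starting at 0. STARD4, HMGCS1 and INSIG1 are lowest in both siHP1γ conditions, MYLIP is highest and SOAT1 and ELOVL6 are lowest in both siPRMT5 conditions.

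The same question was put for PRMT5, by comparing siPRMT5 with the same siNS libraries. With Dex, 13 of the 34 genes fell and 2 rose, where 21.9% of all genes tested fell and 20.6% rose. Without Dex, 8 fell and 6 rose, where 21.6% of all genes fell and 20.6% rose, so the shares of 23.5% and 17.6% were close to those over all genes. The median log2 fold change of the 34 was -0.11 with Dex and 0.00374 without, against 0.00207 and 0.000477 over all genes. All 8 genes that fell without Dex also fell with Dex, where they made up 61.5% of the 13, and MYLIP rose in both. Over all genes, 2324 fell in both, which was 69.5% of those that fell with Dex and 70.5% of those that fell without.

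**Figure D4:**
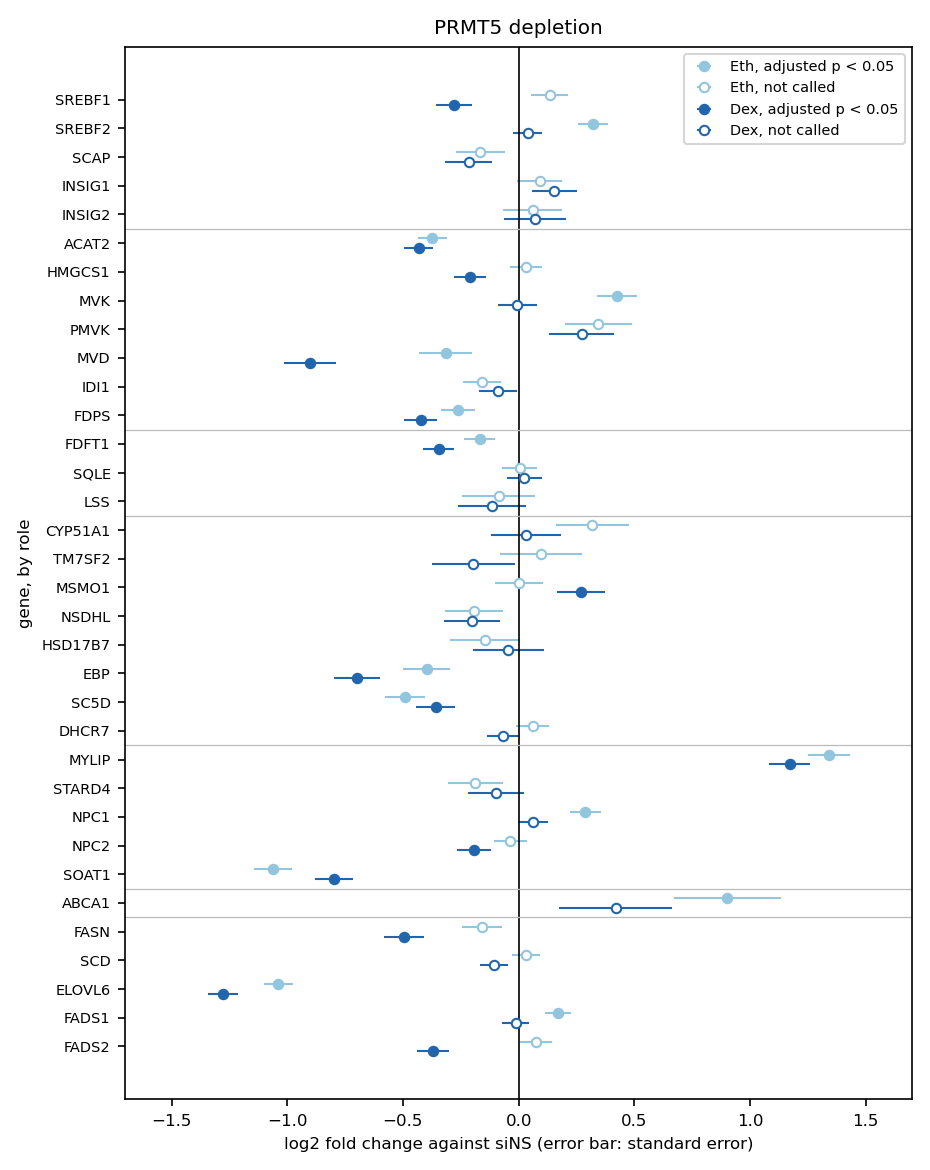
Log2 fold change of siPRMT5 against siNS for the 34 tested genes, with Eth (light) and with Dex (dark), error bars giving the standard error from the edgeR fit and filled points an adjusted p below 0.05. Points spread to both sides of 0, with MYLIP farthest to the right at 1.34 and 1.17. The points farthest to the left are SOAT1 and ELOVL6 without Dex (-1.06 and -1.04) and ELOVL6, MVD and SOAT1 with Dex (-1.28, -0.90 and -0.80).

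Among the regulators, SREBF1 fell by 0.28 with Dex (SE 0.08, adjusted p = 0.00605) and SREBF2 rose by 0.32 without (SE 0.06, adjusted p = 0.000201). INSIG1 was at 294, 265 and 344 CPM in siPRMT5 Eth and at 238, 246 and 225 CPM in siPRMT5 Dex libraries, overlapping the siNS libraries of the same treatment, with log2 fold changes of 0.09 and 0.15 that did not pass. SCAP and INSIG2 were not called in either treatment.

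In the stretch from acetyl-CoA to farnesyl diphosphate, 4 of 7 fell with Dex, and 3 fell and 1 rose without. MVD was at 43.5, 43.9 and 33.8 CPM in siPRMT5 Eth and at 36.7, 30.4 and 36.9 CPM in siPRMT5 Dex libraries, below the siNS values given above in both treatments. Its log2 fold change was -0.90 with Dex (SE 0.11, adjusted p = 4.69e-07) and -0.32 without (SE 0.11, adjusted p = 0.0291). ACAT2 was at 309, 289 and 290.1 CPM in siPRMT5 Eth and at 299, 271 and 291 CPM in siPRMT5 Dex libraries, also below every siNS library, and fell by 0.37 without and by 0.43 with Dex (SE 0.06 in both, adjusted p = 2.97e-05 and 4.27e-06). FDPS, at 199.9, 205 and 182 CPM with Eth and 192, 176 and 176 CPM with Dex, fell by 0.26 (SE 0.07, adjusted p = 0.00468) and 0.42 (SE 0.07, adjusted p = 3.43e-05). HMGCS1 was at 734, 704 and 811 CPM in siPRMT5 Eth libraries, overlapping the siNS libraries, and at 592, 605 and 591 CPM in siPRMT5 Dex libraries, below all siNS Dex libraries. HMGCS1 thus fell by 0.21 with Dex (SE 0.07, adjusted p = 0.0154) and was at 0.03 without (adjusted p = 0.759), and MVK rose by 0.42 without Dex (SE 0.09, adjusted p = 0.000312) and was at -0.01 with it.

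Downstream of farnesyl diphosphate, the genes that fell in both treatments were FDFT1, EBP and SC5D. FDFT1 was at 379, 354 and 355 CPM in siPRMT5 Eth and at 352, 306 and 327 CPM in siPRMT5 Dex libraries, and fell by 0.17 (SE 0.07, adjusted p = 0.044) and by 0.35 (SE 0.07, adjusted p = 0.000146). The drop of FDFT1 without Dex was near the threshold and was lost in 13 of 25 alternative fits, also when DESeq2 size factors or library sizes alone replaced TMM. EBP was at 26.9, 28.3 and 24.1 CPM with Eth and at 25.3, 21.8 and 25.2 CPM with Dex, below every siNS library, and fell by 0.40 (SE 0.10, adjusted p = 0.00263) and by 0.70 (SE 0.10, adjusted p = 3.28e-06). SC5D was at 98.3, 111 and 114 CPM with Eth and at 104, 116 and 107 CPM with Dex, and fell by 0.49 (SE 0.08, adjusted p = 4.11e-05) and by 0.36 (SE 0.08, adjusted p = 0.00119). MSMO1 rose by 0.27 with Dex (SE 0.10, adjusted p = 0.0372), a call lost in 4 of 25 alternative fits, and was at 0.00 without. SQLE, LSS, CYP51A1, TM7SF2, NSDHL, HSD17B7 and DHCR7 passed in neither treatment.

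The transport group held changes in both directions. MYLIP (chr6:16129086-16148248) was at 20.1, 20.2 and 20 CPM in siNS Eth and at 50.3, 45.9 and 56.1 CPM in siPRMT5 Eth libraries. With Dex, MYLIP was at 21.1, 20.3 and 22.6 CPM in siNS and at 48.5, 48.4 and 47.4 CPM in siPRMT5 libraries. Every siPRMT5 library was above every siNS library, at 253% of the siNS mean without and 226% with Dex, or log2 fold changes of 1.34 (SE 0.09, adjusted p = 1e-11) and 1.17 (SE 0.09, adjusted p = 6.66e-11). SOAT1 (chr1:179293714-179358680) was at 138, 124 and 128 CPM in siNS Eth and at 61.1, 60.9 and 64.4 CPM in siPRMT5 Eth libraries. With Dex, SOAT1 was at 107, 103 and 107 CPM in siNS and at 59.7, 64.0 and 58.8 CPM in siPRMT5 libraries. It fell to 47.9% of the siNS mean without (log2 fold change -1.06, SE 0.08, adjusted p = 9.63e-11) and to 57.5% with Dex (-0.80, SE 0.08, adjusted p = 1.56e-08).

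STARD4 was at 124, 125 and 137 CPM in siPRMT5 Eth and at 115, 122 and 94.0 CPM in siPRMT5 Dex libraries, overlapping siNS in both treatments, and was not called (adjusted p = 0.227 and 0.551). NPC1 rose by 0.29 without Dex (adjusted p = 0.000912), and NPC2 fell by 0.19 with Dex (adjusted p = 0.0324), a call lost in 6 of 25 alternative fits. ABCA1 was at 2.32, 1.73 and 2.59 CPM in siNS Eth and at 3.65, 4.93 and 3.90 CPM in siPRMT5 Eth libraries, above the siNS range at low counts, and rose by 0.90 (SE 0.23, adjusted p = 0.00265). With Dex, ABCA1 was at 0.42 (SE 0.24, adjusted p = 0.173).

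In the fatty acid group, ELOVL6, the elongase of palmitate and other saturated fatty acids (chr4:110045846-110199199), was at 259, 259 and 249 CPM in siNS Eth and at 124, 130.2 and 119 CPM in siPRMT5 Eth libraries. With Dex, ELOVL6 was at 228, 253 and 251 CPM in siNS and at 100.2, 105 and 96.9 CPM in siPRMT5 libraries. It fell to 48.7% of the siNS mean without (log2 fold change -1.04, SE 0.06, adjusted p = 1.24e-12) and to 41.2% with Dex (-1.28, SE 0.06, adjusted p = 2.69e-14), the largest drop among the 34 genes in that comparison. In siHP1γ cells ELOVL6 was at 209, 205 and 207 CPM with Eth and at 195, 197 and 185 CPM with Dex, log2 fold changes of -0.31 and -0.34 (SE 0.06 in both, adjusted p = 0.000436 and 0.00018). FADS2 was at 323, 338 and 313 CPM in siPRMT5 Eth and at 297, 285 and 303 CPM in siPRMT5 Dex libraries, and fell by 0.37 with Dex only (SE 0.07, adjusted p = 8.45e-05), its value without Dex being 0.07 (adjusted p = 0.413). FASN also fell with Dex, by 0.49 (SE 0.09, adjusted p = 5.02e-05), SCD passed in neither treatment, and FADS1 rose by 0.17 without Dex (adjusted p = 0.0194), a call lost in 5 of 25 alternative fits.

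Because both depletions were compared with the same siNS libraries, their lists are not independent, and the depletions were also compared with each other, a comparison chosen after the data had been seen. With Dex, 19 of the 34 genes were higher and 3 lower in siPRMT5 than in siHP1γ cells, where 24.4% of all genes were higher and 25.5% lower. Without Dex, 21 were higher and 3 lower, where 23.4% of all genes were higher and 25% lower. STARD4 was 0.96 (SE 0.13, adjusted p = 5.51e-07) and INSIG1 0.92 (SE 0.10, adjusted p = 2.72e-08) higher on the log2 scale in siPRMT5 Dex than in siHP1γ Dex cells, and HMGCS1 was 0.61 higher (SE 0.07, adjusted p = 5.44e-08). The genes lower in siPRMT5 were ELOVL6 and SOAT1 in both treatments, with log2 differences of -0.94 and -0.73 with Dex and -0.73 and -0.57 without, besides MVD with Dex and SCAP without. For FDPS, SC5D and EBP no difference passed in either treatment, with log2 differences of 0.04, 0.02 and -0.17 with Dex (SE 0.07, 0.08 and 0.10) and 0.15, 0.07 and -0.05 without (SE 0.07, 0.09 and 0.10). Under library sizes alone, 16 and 20 were higher and 4 were lower in each treatment, and the share of higher genes among all genes called moved from 48.9% to 39.5% with Dex.

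The response to Dex was called at an adjusted p below 0.01 and a fold change of at least 1.5, and by edgeR none of the 34 genes passed in any cell state. In siNS cells 1.65% of all genes tested were higher and 1.06% lower by this rule, in siHP1γ cells 1.01% and 0.660%, and in siPRMT5 cells 2.69% and 2.75%. At an unadjusted p below 0.05, 13, 4 and 10 of the 34 genes passed in siNS, siHP1γ and siPRMT5 cells, and DESeq2 called 0 in each. The shares over all genes at the unadjusted rule are not given here, so these counts do not show an excess among the 34. At an adjusted p below 0.05 with no fold limit, 4 were higher and 3 lower in siNS cells, where 4.88% of all genes were higher and 4.28% lower. By the same rule 0 were higher and 1 lower in siHP1γ cells (2.44% and 3.10% of all genes), and 0 were higher and 6 lower in siPRMT5 cells (7.52% and 8.48% of all genes).

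In siNS cells the genes higher by the wider rule were MVK, MVD, FADS1 and FADS2, with log2 fold changes of 0.38, 0.36, 0.26 and 0.30. MVK was at 27.6, 34.0 and 32.5 CPM with Eth and at 42.1, 40.3 and 40.0 CPM with Dex, without overlap (SE 0.09, adjusted p = 0.00463). Those lower were INSIG1 at -0.41, INSIG2 at -0.47 and SOAT1 at -0.29 (adjusted p = 0.00602, 0.0188 and 0.0161). In siHP1γ cells NPC1 was lower, at -0.32 (SE 0.07, adjusted p = 0.00264). In siPRMT5 cells INSIG1, INSIG2, SREBF1, HMGCS1, NPC1 and ELOVL6 were lower, with log2 fold changes of -0.46 to -0.23. INSIG1 had a log2 fold change of -0.41 in siNS, -0.31 in siHP1γ (adjusted p = 0.0739) and -0.35 in siPRMT5 cells, and these values did not differ past the threshold between cell states (adjusted p = 0.747 and 0.85 for the differences).

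**Figure D5:**
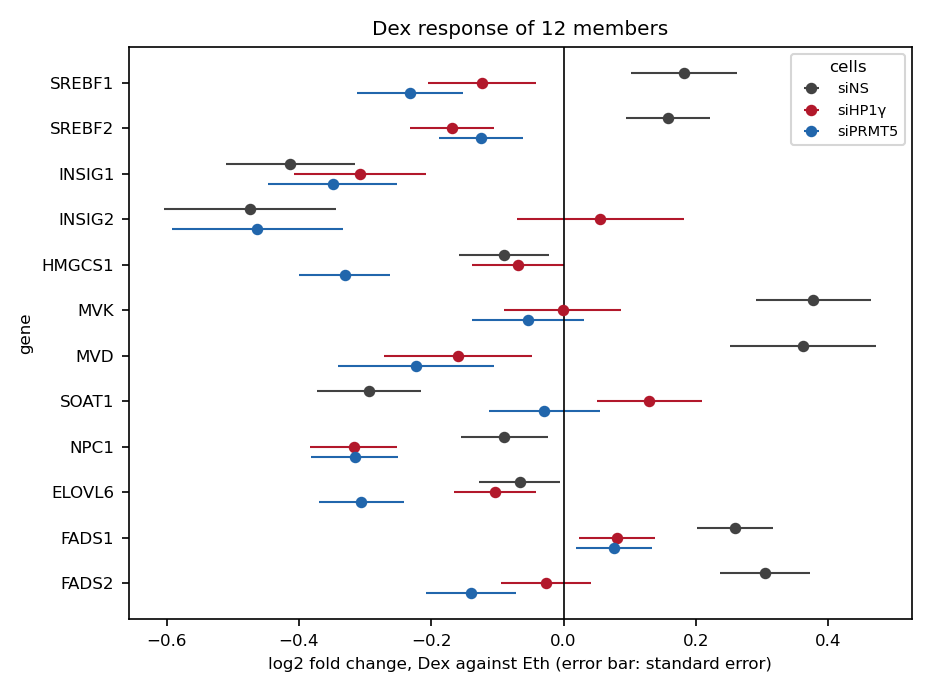
Log2 fold change of Dex against Eth in siNS, siHP1γ and siPRMT5 cells for 12 of the genes (the 2 SREBP genes and the genes called in any cell state at an adjusted p below 0.05 with no fold limit), with the standard error from the edgeR fit. SREBF1, MVK, MVD and FADS2 lie to the right of 0 in siNS cells and at or to the left of 0 in siPRMT5 cells.

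Whether the Dex response itself differed from siNS cells was tested by an interaction term, called at an adjusted p below 0.05. For siPRMT5 cells, 4 of the 34 genes had a lower Dex response than in siNS cells and 0 a higher one, where 2.23% of all genes were lower and 1.58% higher. FADS2 changed by 0.30 in siNS and by -0.14 in siPRMT5 cells on the log2 scale, a difference of -0.44 (SE 0.10, adjusted p = 0.00801). For MVD the values were 0.36 and -0.22, a difference of -0.59 (SE 0.16, adjusted p = 0.0391), for MVK 0.38 and -0.05, a difference of -0.43 (SE 0.12, adjusted p = 0.0438), and for SREBF1 0.18 and -0.23, a difference of -0.41 (SE 0.11, adjusted p = 0.0369). The call of FADS2 held without each of the 18 libraries in turn, whereas those of SREBF1, MVD and MVK held in 8, 6 and 6 of the 18 such fits.

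For siHP1γ cells, 0 of the 34 genes passed in either direction by edgeR, where 0.118% of all genes had a higher and 0.281% a lower Dex response than in siNS cells. At an unadjusted p below 0.05, 9 were lower and 2 higher, and DESeq2 called 4, which were FADS2, FASN, SOAT1 and SREBF2. The edgeR values of these were -0.33, -0.46, 0.42 and -0.33 (adjusted p = 0.103, 0.0885, 0.0867 and 0.0939). Without the siNS Eth library of replicate 2, edgeR called 4 as well, namely FADS2, FASN, MVD and SREBF2. Shares over all genes by the unadjusted rule, by DESeq2 and without that library are not given here. These counts can therefore not be set against the edgeR shares above.

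Neighbouring pathways were counted from 5 lists of genes outside the 36. The shares over all genes tested, beside which these counts stand, were 12.3% lower and 11.7% higher after HP1γ and 21.9% lower and 20.6% higher after PRMT5 depletion with Dex, and 15.2% and 16.5%, and 21.6% and 20.6%, without. Of 20 tested genes of fatty acid supply, elongation and activation, 10 fell and 1 rose after HP1γ depletion with Dex, and likewise 10 and 1 without. The largest drops with Dex were those of ACSL3, which activates long-chain fatty acids (-1.22, SE 0.09, adjusted p = 2.2e-10), ELOVL5, an elongase of polyunsaturated fatty acids (-1.08, SE 0.08, adjusted p = 5.85e-10), and the desaturase SCD5 (-0.83, SE 0.13, adjusted p = 3.68e-05). After PRMT5 depletion 9 of the 20 fell and 4 rose with Dex, and 12 fell and 2 rose without, with log2 fold changes with Dex of -1.28 for the citrate carrier SLC25A1, -1.17 for the elongase ELOVL1 and 1.03 for the acetyl-CoA carboxylase ACACB.

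Of 11 genes of SREBP processing and degradation, 4 rose and 1, ERLIN2, fell after HP1γ depletion with Dex, and 5 rose and 1, ERLIN1, fell after PRMT5 depletion with Dex. Without Dex, 4 rose and 2 fell after HP1γ and 6 rose and 2 fell after PRMT5 depletion. ERLIN2, which forms a complex with ERLIN1 in the endoplasmic reticulum, fell by 0.43 in siHP1γ Dex and rose by 0.52 in siPRMT5 Dex cells, while ERLIN1 was at 0.10 (adjusted p = 0.253) and fell by 1.08. Of 15 genes of the isoprenoid branch, 0 rose and 1, DHDDS, fell after HP1γ depletion with Dex, and 0 rose and 5 fell after PRMT5 depletion with Dex, among them DHDDS (-0.79) and the geranylgeranyl diphosphate synthase GGPS1 (-0.51). Without Dex, 1 rose and 2 fell after HP1γ and 1 rose and 7 fell after PRMT5 depletion. Of 15 genes of oxysterol receptors and further sterol transport, 2 rose and 3 fell after HP1γ and 6 rose and 3 fell after PRMT5 depletion with Dex, and 4 rose and 2 fell, and 7 rose and 4 fell, without. SCARB1, the receptor for high-density lipoprotein, fell by 1.94 in siPRMT5 Dex cells (SE 0.09, adjusted p = 1.09e-14) and was at -0.09 in siHP1γ Dex cells (adjusted p = 0.487), whereas CAV1 fell by 0.66 in siHP1γ Dex cells (adjusted p = 4.4e-08) and was at 0.05 in siPRMT5 Dex cells (adjusted p = 0.594). Of 12 genes of triglyceride and phospholipid assembly, 1, DGAT2, rose and 4 fell after HP1γ depletion with Dex, and 4 rose and 5 fell after PRMT5 depletion with Dex. Without Dex, 3 rose and 4 fell after HP1γ and 5 rose and 2 fell after PRMT5 depletion. The median log2 fold change after HP1γ depletion with Dex was -0.29 for the fatty acid supply list and between -0.09 and 0.10 for the other lists.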

How the data were processed

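RNA-sequencing of MDA-MB-231 cells covered 18 libraries, 3 for each of 6 conditions, grouped by the sample titles. The authors prepared libraries with Lexogen kits from total RNA, mapped reads on hg38 with Bowtie2 2.4.2 and counted them with HTSeq 0.9.1. They deposited whole-number counts per gene symbol for each library, with no normalization. Bowtie2 aligns without splitting a read, and genes with many short exons may lose junction reads. The strand setting and gene annotation are not given in the sources used here, so reads of overlapping or antisense genes, and of pseudogenes, may be split or lost. A deposited table of the authors' own comparisons, made with DESeq2 2.11.40.7, holds fold changes and adjusted p-values and was not used.

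From the counts, edgeR 4.0.16 (R 4.3.3) kept 15298 genes by filterByExpr, scaled library sizes by TMM, and fitted 1 mean per condition to all 18 libraries (12 residual degrees of freedom). Quasi-likelihood tests were adjusted by the Benjamini-Hochberg method over all genes. Thresholds were taken from the study: adjusted p below 0.01 with a change of 1.5-fold or more for Dex responses, and adjusted p below 0.05 for depletions, applied here to interactions too. The study names 2 different fold limits for Dex responses, and the lower was used here. With 3 libraries against 3, an exact permutation test of a single gene cannot go below p = 0.1, so groups of libraries are described by whether they overlap. P-values test differences between condition means against the spread between replicate libraries. That spread was estimated over all 18 libraries, with information shared across genes. The test script was checked on simulated counts.

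The genes, role groups, lists of neighbouring pathways and motifs were chosen with earlier results of these data known. Values per library are given for genes called in most comparisons and for the 4 largest changes in each depletion with Dex, and for MVK, IDI1 and ABCA1 in part, and up to 3 genes of each neighbouring list are named by the size of their change with Dex. Gene coordinates are from GENCODE (GRCh38), promoters from RefSeq. Alternatives were DESeq2 1.42.0, DESeq2 size factors, library sizes alone, no filter, a minimum of 10 counts in every library, a replicate block, fits on the compared libraries only, another threshold, and each library left out. Same-numbered libraries were not treated as paired in the main fit. Of their 45 pairs, 12 had deviations correlated above 0.1, and 11 of 18 libraries correlated best with their own number. These values do not settle whether the replicates were paired.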

Additional observations from a re-analysis of the deposited data

Results flagged for a closer look

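In 4 of the genes the response to Dex differed between siPRMT5 and siNS cells by the interaction test of edgeR (adjusted p below 0.05). The difference of the log2 fold changes was -0.44 for FADS2 (adjusted p = 0.00801), -0.59 for MVD (adjusted p = 0.0391), -0.43 for MVK (adjusted p = 0.0438) and -0.41 for SREBF1 (adjusted p = 0.0369). Each of these genes was higher with Dex in the mean of siNS cells and lower in the mean of siPRMT5 cells.

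For FADS2 the adjusted p ranged from 0.00328 to 0.0327 over the fits that left out 1 library and from 0.000585 to 0.0109 over the 7 other alternatives. The upper ends with 1 library left out were 0.119 for MVD, 0.151 for MVK and 0.0982 for SREBF1, and over the 7 other alternatives MVD and SREBF1 kept their calls while MVK lost its call with no filter on low counts, with the replicate block and in the fit on the compared libraries only. What lies behind the differences was not tested.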

How the results depend on the processing

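Of 9343 values of single genes under an alternative, 9176 kept their call, 123 lost it, 44 gained one and 0 turned direction. Requiring a fold change of at least 1.5 left 9 called genes after HP1γ depletion with Dex and 7 without, and 5 and 4 after PRMT5 depletion. It left 1 for the siPRMT5 difference in Dex response, and 7 and 8 for siPRMT5 against siHP1γ with and without Dex. The shares over all genes by this rule are not given here, so these counts show only how the calls depend on the threshold. An adjusted p below 0.05 with no fold limit gave 7, 1 and 6 genes for the Dex response in siNS, siHP1γ and siPRMT5 cells. For the siHP1γ difference in Dex response, DESeq2 called 4 genes and the fit with no filter on low counts 2, namely FASN and MVD. The shares over all genes in these fits are not given here.

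With each library left out in turn, 21 to 24 genes were called after HP1γ depletion with Dex, 19 to 20 without, 13 to 16 after PRMT5 depletion with Dex and 12 to 15 without. The siHP1γ difference in Dex response gave 0 to 4 calls, with 4 without siNS Eth replicate 2 and 1 without siHP1γ Dex replicate 3. The siPRMT5 difference gave 1 to 6. It gave 1 without siNS Eth replicate 1 or 3, siNS Dex replicate 1, 2 or 3, siPRMT5 Eth replicate 1, siPRMT5 Dex replicate 1 or 2, or siHP1γ Dex replicate 2, and 2 without siPRMT5 Eth replicate 2 or 3 or siHP1γ Eth replicate 3.

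The replicate number was also entered as a block, although same-numbered libraries were not shown to be paired, with correlations of their deviations from -0.275 to 0.422 and 11 of 18 libraries correlating best with their own number. With the replicate block 24 and 20 genes were called after HP1γ depletion, 15 and 14 after PRMT5 depletion, 0 and 3 for the differences in Dex response, and 22 and 24 for siPRMT5 against siHP1γ.

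With 3 libraries a condition and 8682992 to 12472381 counts each, ABCA1 and CYP51A1 rest on at most 42 and 99 counts per library.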
